A study of Lolium arundinaceum with 6 samples.

Results

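The first 2 h of heat were studied in leaves of tall fescue, a cool season turfgrass, by comparing leaves after 2 h at 38 °C with leaves kept at 23 °C. The comparison uses 4 of the 6 RNA sequencing libraries of the series, namely the 2 labelled heat 2 h and the 2 labelled control, chosen by their labels. All plants were wild type seedlings of the variety Fire Phoenix II and were 10 days old, and each library is a biological replicate of leaf tissue. The 2 remaining libraries, taken after 12 h of heat, serve here only to judge how far replicates differ.

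Plants answer high temperature within minutes through heat shock factors, transcription factors that bind heat shock elements in promoters. Their main targets are chaperones. Small heat shock proteins hold unfolding proteins in a soluble state, HSP70 and its J-domain partners refold them, and proteases and ubiquitin ligases remove those that cannot be saved. At the same time leaves commonly draw back from photosynthesis, growth and lipid synthesis.

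Values are estimated counts for 179680 unigenes, the transcript groups of an assembly made without a reference genome. Totals were 7816840 and 6835173 counts at heat 2 h, against 6349776 and 7891567 counts in control leaves. With at least 1 count, 85922 and 79825 unigenes were seen at heat 2 h, against 66181 and 73318 in control leaves, so that the second heated library showed more unigenes than the deeper second control. Levels are read counts scaled to library size (CPM), adjusted between libraries by the TMM method and not divided by transcript length. They compare 1 unigene between libraries, and classes of CPM group unigenes by the reads they drew. The controls are labelled 0 h, so hours of heat and time of day cannot be told apart. In bulk leaf RNA, fewer cells of a type and less RNA per cell cannot be told apart either. With 2 libraries a side, p-values reflect only how far these libraries differ, which may be technical in part.

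The 2 heated libraries stood farther apart from each other than the 2 controls did. Over the 9208 unigenes with a mean of at least 10 CPM, the log2 difference between replicates had an SD of 0.494 at heat 2 h and 0.233 in control. Counting error alone would give 0.158 at heat 2 h and 0.173 in control. The gap between heat 2 h and control was widest among unigenes that drew many reads. There the SD of control was lowest, while that of heat 2 h was no larger than among unigenes with fewer reads. In the class of 1000 CPM and more, the SD was 0.463 at heat 2 h and 0.0801 in control, where counting error would give 0.0177 and 0.0320. The libraries of heat 12 h had an SD of 0.259 over the same 9208 unigenes, close to that of the controls. The biological coefficient of variation, the replicate spread left after counting error, was 0.247 at heat 2 h and 0.0733 in control.

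**Figure D1:**
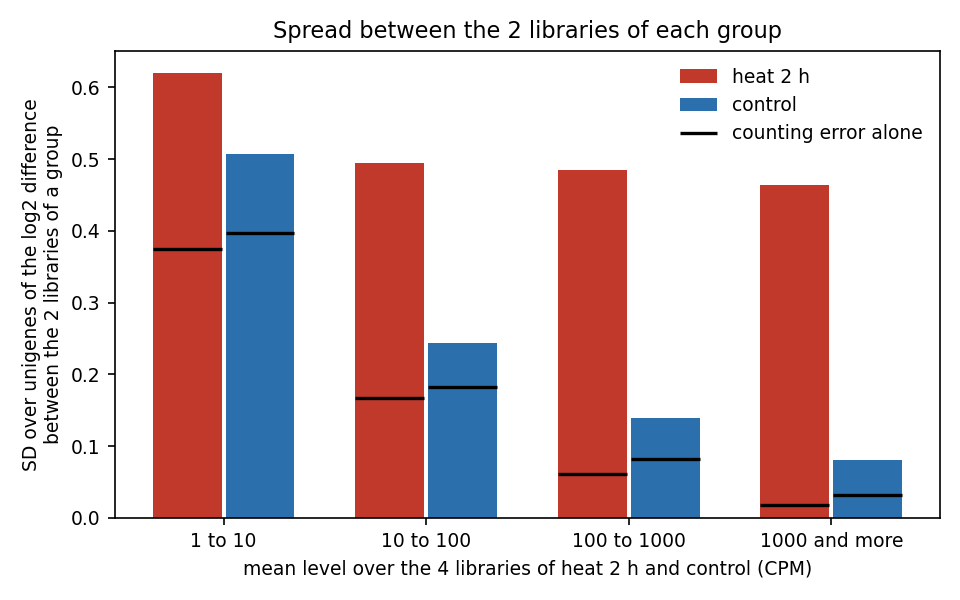
SD over unigenes of the log2 difference between the 2 libraries of a group, by class of mean CPM over the 4 libraries, for heat 2 h and control. Bars are the measured SD and black lines the SD that counting error alone would give. The bars of heat 2 h stay between 0.463 and 0.620, while those of control fall to 0.0801 in the class of 1000 CPM and more.

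The first heated library lay farther from the controls than the second. Over the same 9208 unigenes, the log2 difference to the control mean had an SD of 1.32 in heat 2 h replicate 1 and 1.15 in replicate 2. Among unigenes called up, 827 of 1191 (69.4%) were farther from control in replicate 1, with a median log2 difference of 1.92 in replicate 1 and 1.75 in replicate 2. Among those called down, 750 of 999 (75.1%) were farther in replicate 1, with medians of -1.49 and -1.17. A difference of at least 2-fold between the 2 heated libraries was seen for 448 unigenes, against 17 between the controls. Of the 448, 327 were lower and 121 higher in replicate 1. Of the 327, 231 were within 2-fold of control in replicate 2. Among them 20 were called up, 94 were called down and 213 were not called. Of the 121, 61 were within 2-fold of control in replicate 2, with 53 called up, 4 called down and 64 not called. Over all 9208 unigenes, 1191 were called up and 999 down, so most of them were not called either. What sets the 2 heated libraries apart was not tested.

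Of 25966 unigenes with enough counts for a test, 3768 (14.5%) were called up and 2190 (8.43%) were called down by edgeR's quasi-likelihood test. To be called, a unigene had to change at least 2-fold with an adjusted p no higher than 0.05. The median log2 fold change, heat over control, was 2.15 among those called up and -1.55 among those called down, against 0.04 over all unigenes tested. The rises reached farther than the falls. A log2 fold change of at least 3 was seen for 1137 of the unigenes called up, while 93 of those called down fell that far. At a log2 change of 5 the counts were 484 and 10. The heated and control libraries did not overlap for any unigene called, and this also held for 67.3% of all unigenes tested. In control leaves 261 of the unigenes called up had 0 counts and 388 had 1 to 3 counts, so that a fitted fold change says little about the size of their rise. A further 1920 unigenes changed at least 2-fold without passing the test. Without heat 2 h replicate 2 the count of falls grew to 3729 (with 4761 rises), and without replicate 1 it was 2303 (with 3256 rises). In such fits the spread comes from the 2 controls alone.

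The unigenes called up took 22.3 and 20.2% of the tested CPM at heat 2 h, against 2.65 and 2.62% in control leaves. Those called down took 5.04 and 7.06% at heat 2 h, against 14.5 and 14.4% in control leaves. These shares were set by the calls and are given as a description of how much of each library they made up. A mean of at least 1000 CPM was reached by 98 unigenes at heat 2 h and by 106 in control, 73 of them in both. Of the 25 that reached it at heat 2 h only, 23 were called up. Of the 33 that reached it in control only, 9 were called down. The direction of these calls was set by how the unigenes were picked, so the counts are a description only. Among the 100 unigenes with the highest CPM in each group, 73 were shared.

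The share of unigenes called up was similar from class to class once the lowest class is set aside. It was 14.7% of the 16550 unigenes of 1 to 10 CPM, 12.7% of the 8077 of 10 to 100 CPM, 15.1% of the 1027 of 100 to 1000 CPM and 13.5% of the 104 of 1000 CPM and more. The share called down was 7.08, 10.4, 14.4 and 12.5% in the same classes. The median log2 fold change was 0.15 in the class of 1 to 10 CPM and -0.42 in that of 1000 CPM and more. The few rises in the highest class were the steepest of these 4 classes, with a median log2 fold change of 5.06 over 14 unigenes. The class is set by the mean over all 4 libraries, so a steep rise itself lifts a unigene into a higher class. HSP17.6II (c148595_g1), for one, had a mean of 48.9 CPM in control leaves and 7631 CPM at heat 2 h. The steepness in the highest class is therefore in part a product of how the classes were made. The 13 falls of that class had a median of -1.28. Unigenes with a mean under 1 CPM pass the filter on low counts only through the group where they are high, so the 140 rises among 208 of them show the filter.

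The precision followed the class. The median standard error (SE) of the log2 fold change was 0.43 at 1 to 10 CPM, 0.23 at 10 to 100 CPM, 0.19 at 100 to 1000 CPM and 0.16 at 1000 CPM and more. Of unigenes that changed at least 2-fold, 66.2% passed the test at 1 to 10 CPM and 97.9% at 10 to 100 CPM. The lowest of these classes was also the one that moved most with the test. There DESeq2 called 1544 up and 633 down, where edgeR called 2437 and 1172. Without control replicate 1 the class had 1584 rises and 746 falls, and without control replicate 2 it had 1586 and 721. Without heat 2 h replicate 2 it had 1973 falls. In the class of 1000 CPM and more, 7 unigenes were called down without heat 2 h replicate 1 and 21 without replicate 2. At 10 to 100 CPM and at 100 to 1000 CPM, 1351 and 240 were called down without heat 2 h replicate 2, where all 4 libraries gave 838 and 148.

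**Figure D2:**
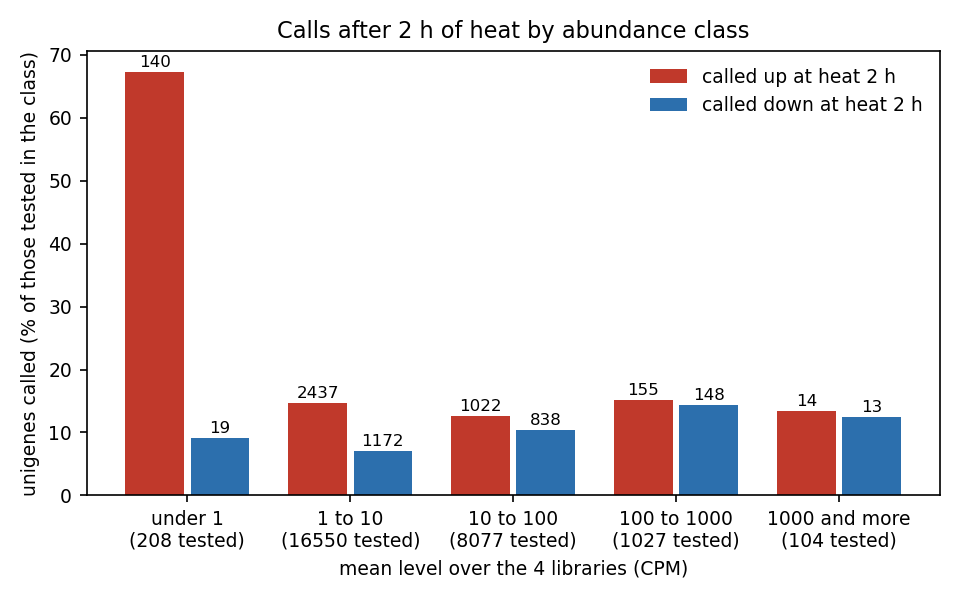
Unigenes called up and down at heat 2 h against control, in percent of those tested in each class of mean CPM over the 4 libraries, with the number called above each bar. From 1 CPM upward 12.7 to 15.1% were called up, and the share called down ran from 7.08 to 14.4%.

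Unigenes are named below after their closest match in Arabidopsis or rice, as given in those parts of the study's tables that were used here. The largest table was used only in part (1472 rows), so the names cover 1770 of the unigenes tested, and lists and ranks of named unigenes extend no further. These tables hold unigenes that the study itself had picked as changed or by pathway on these libraries, so a count over a list is not independent evidence of its direction. Of the 1770, 25.5% were called up and 20% were called down, with a median log2 fold change of -0.04.

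Small heat shock proteins had the highest median log2 fold change of the 26 lists counted, 6.15, against 0.04 over all unigenes. Of 15 tested, 14 were called up. None was called down by edgeR, at an adjusted or an unadjusted p, or by DESeq2, though 1 was with no minimum fold. Summed over the list, their level was 42340.2 and 32781 CPM at heat 2 h, against 599 and 606 CPM in control leaves. They thus made up 4.4 and 3.4% of the tested CPM at heat 2 h, against 0.0575 and 0.0581% in control leaves.

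The chloroplast protein HSP21 (c141018_g3), which protects photosystem II, had 12205 and 10594 CPM at heat 2 h, against 303 and 319.8 CPM in control leaves. Both heated libraries were far above both controls, and their own difference was 1.15-fold (log2 fold change 5.19, SE 0.18, adjusted p = 1.42e-06 by edgeR). HSP17.6II (c148595_g1), a cytosolic class II protein, had 8705 and 6558 CPM at heat 2 h, against 54.5 and 43.3 CPM in control leaves, with the higher heated value in replicate 1 (log2 fold change 7.29, SE 0.25, adjusted p = 1.42e-06 by edgeR). A pair of unigenes matched HSP22.0, which resides in the endoplasmic reticulum in Arabidopsis, and they differed in how their heated libraries ranked. The first, c152923_g5, had 5346 and 2658 CPM in the heated libraries and 34 and 37.1 CPM in the controls, so that replicate 1 stood 2.01-fold above replicate 2 (log2 fold change 6.81, SE 0.36). The second, c152923_g1, had 1436 and 1754 CPM in the heated libraries and 17.7 and 17.6 CPM in the controls, with replicate 2 the higher (log2 fold change 6.50, SE 0.22). As parts of 1 assembled cluster, the pair may share reads.

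The mitochondrial HSP23.6 (c138951_g1) was nearly silent in control leaves. It had 164 and 154 CPM at heat 2 h, against 1.17 and 0.537 CPM in control leaves, and its heated libraries were 1.07-fold apart (log2 fold change 7.56, SE 0.32, adjusted p = 3.42e-06 by edgeR). All 7 unigenes named HSP18.2, a cytosolic class I protein, were called up, with log2 fold changes between 5.51 and 6.68. In 6 of the 7 the level was higher in heat 2 h replicate 2. The exception drew the most reads, c140891_g2, with 9063 and 5659 CPM at heat 2 h, against 76.1 and 67.6 CPM in control leaves (log2 fold change 6.68, SE 0.28, adjusted p = 3.42e-06 by edgeR). Across the 15 small heat shock proteins, 7 were higher in replicate 1 and 8 in replicate 2.

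**Figure D3:**
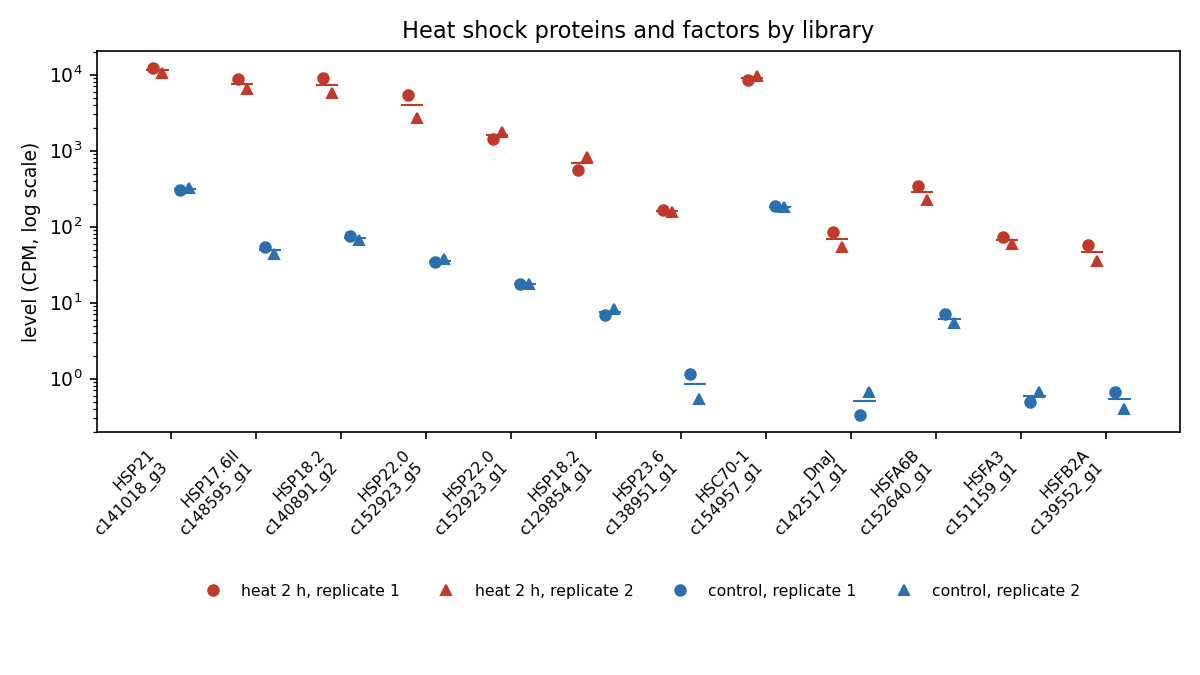
Levels of heat shock proteins, chaperones and heat shock factors in each library, in CPM on a log scale, with heat 2 h in red and control in blue, replicate 1 as circles, replicate 2 as triangles and the group mean as a line. In all 12 unigenes both heated libraries lie above both controls, and HSP21 reaches 12205 and 10594 CPM at heat 2 h.

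Heat shock factors, which control these genes, rose in 5 of 6 tested unigenes (median log2 fold change 5.56). None of them was called down by edgeR, adjusted or unadjusted, or by DESeq2, though 1 was without heat 2 h replicate 1 and 1 with no filter beyond 1 count. HSFA3 (c151159_g1), which acts downstream of DREB2A in Arabidopsis, had 73.6 and 59.2 CPM at heat 2 h, against 0.50 and 0.672 CPM in control leaves. Its controls held 3 and 5 counts (log2 fold change 6.76, SE 0.33, adjusted p = 4.68e-06 by edgeR). HSFA6B (c152640_g1) had 338 and 226 CPM at heat 2 h, against 7.0 and 5.37 CPM in control leaves, and replicate 1 was 1.5-fold above replicate 2 among the heated libraries (log2 fold change 5.52, SE 0.29, adjusted p = 6.59e-06 by edgeR). HSFB2A (c139552_g1), of the class B factors that commonly act as repressors, had 57.1 and 35 CPM in the heated libraries and 0.667 and 0.403 CPM in the controls (log2 fold change 6.42, SE 0.43, adjusted p = 2.08e-05 by edgeR). HSFB2B (c135926_g1) held 2 counts in the controls together, and its summed heated counts per library size were 55 times (95% counting interval 14.9 to 459.7) as many. All 6 factors were higher in replicate 1 than in replicate 2.

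HSP70 partners and chaperonins gave 8 rises and 1 fall among 13 tested (median log2 fold change 1.56). The fall was not called without heat 2 h replicate 1. HSC70-1 (c154957_g1), a cytosolic HSP70, had 8394 and 9666 CPM at heat 2 h, against 187 and 181 CPM in control leaves, which made it one of the unigenes that gained the most reads (log2 fold change 5.62, SE 0.18, adjusted p = 1.42e-06 by edgeR). A J-domain protein (c142517_g1), of the family that feeds clients to HSP70, had 84.7 and 54.2 CPM at heat 2 h, against 0.333 and 0.672 CPM in control leaves (log2 fold change 7.02, SE 0.41, adjusted p = 1.09e-05 by edgeR). CPN10 (c144578_g1), the lid of the chaperonin barrel in organelles, had 99.99 and 121 CPM in the heated libraries and 14 and 11.1 CPM in the controls, with replicate 2 the higher (log2 fold change 3.14, SE 0.22, adjusted p = 3.05e-05 by edgeR). The ubiquitin ligase CHIP (c143336_g1), which tags HSP70 clients for removal, had 69.8 and 56 CPM in the heated libraries and 16.5 and 16.1 CPM in the controls and a log2 fold change of 1.95.

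In protein folding in the endoplasmic reticulum, 3 of 11 tested unigenes (27.3%) rose, near the 25.5% of all unigenes with a name (median log2 fold change 0.64). None was called down by edgeR, adjusted or unadjusted, or by DESeq2, though 1 was without heat 2 h replicate 2. The disulfide isomerase PDIL2-2 (c151179_g1) had 289 and 312 CPM at heat 2 h, against 46 and 42.4 CPM in control leaves, and both groups were tight (log2 fold change 2.77, SE 0.18, adjusted p = 2.05e-05 by edgeR). A second isomerase, PDIL1-1 (c151576_g1), had 138 and 180.0 CPM in the heated libraries and 51.3 and 51.4 CPM in the controls. The third rise was an Alg9-like mannosyltransferase (c153204_g1), which builds the glycan added to secreted proteins, with 52.1 and 52.4 CPM at heat 2 h and 10.3 and 9.27 CPM in control leaves (log2 fold change 2.42, SE 0.21).

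A pair of proteases were among the 10 largest rises of unigenes named in the rows used. FTSH6 (c144626_g1), a thylakoid protease that degrades antenna proteins and HSP21 in Arabidopsis, had 558 and 583 CPM at heat 2 h, against 2.17 and 1.48 CPM in control leaves. Its 2 heated libraries agreed within 1.04-fold (log2 fold change 8.30, SE 0.26, adjusted p = 1.42e-06 by edgeR). DegP7 (c140968_g2), a serine protease, had 34.3 and 24.4 CPM in the heated libraries and 0.167 and 0 CPM in the controls. It held 1 control count, and its heated counts per library size were 399 times (95% counting interval 71.2 to 15789.9) as many. Ferredoxin 3 (FD3, c136982_g1), an electron carrier of plastids, had 280.1 and 203 CPM at heat 2 h, against 0.50 and 0.269 CPM in control leaves, one of 2 rises in the list of photosynthesis (log2 fold change 9.27, SE 0.37, adjusted p = 3.32e-06 by edgeR).

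Among the largest rises were unigenes that held few counts in control leaves. A resistance protein of the NB-ARC type (c146048_g4), a family of intracellular immune receptors, had 77.3 and 56.7 CPM at heat 2 h, against 0 and 0.134 CPM in control leaves. Its heated counts were 909.7 times (95% counting interval 163 to 35964) as many as its single control count, per library size. A unigene whose best match is the receptor kinase CRK8 (c142513_g1) had 51.4 and 60.8 CPM in the heated libraries and 0 and 0.134 CPM in the controls, again on 1 control count, and a ratio of 749.9 (95% counting interval 134 to 29656). The proline transporter PROT1 (c131807_g1), which moves the osmolyte proline into cells, had 353 and 203 CPM at heat 2 h, against 1.17 and 1.21 CPM in control leaves. Heat 2 h replicate 1 stood 1.74-fold above replicate 2, while the controls were nearly equal (log2 fold change 7.85, SE 0.39, adjusted p = 5.00e-06 by edgeR).

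In abscisic acid signalling, the hormone pathway that closes stomata, 10 of 24 tested unigenes rose and 5 fell (median log2 fold change -0.04). The shares were 41.7% up and 20.8% down, against 25.5 and 20% of unigenes with a name, so the falls were near that share. OST1 (c156184_g1), the kinase that drives stomatal closure, had 1857 and 1658 CPM at heat 2 h, against 16 and 17.3 CPM in control leaves, and the heated libraries were 1.12-fold apart (log2 fold change 6.72, SE 0.21, adjusted p = 1.42e-06 by edgeR). CYP707A4 (c150585_g1), which breaks the hormone down, had 107 and 72.5 CPM in the heated libraries and 7.17 and 5.91 CPM in the controls (log2 fold change 3.78, SE 0.27, adjusted p = 3.12e-05 by edgeR). The list holds both parts of CHLH, described with photosynthesis below. Without control replicate 1 it had 5 rises, and without heat 2 h replicate 2 it had 9 falls.

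Jasmonate and ethylene unigenes mostly rose, 8 of 11 tested (median log2 fold change 2.38). With all 4 libraries edgeR called none down at an adjusted p, and DESeq2 called none. At an unadjusted p edgeR called 2 down. It also called 2 down with all 6 libraries in the fit or with a block on the replicate number, and 3 with no filter beyond 1 count. Falls numbered 1 without heat 2 h replicate 1 and 2 when heat 2 h replicate 2 or control replicate 2 was left out. ACX3 (c146857_g1), an acyl-CoA oxidase of the peroxisome, where jasmonate is finished, had 281 and 227 CPM at heat 2 h, against 48.3 and 48.9 CPM in control leaves (log2 fold change 2.38, SE 0.19, adjusted p = 6.03e-05 by edgeR). JAZ1, a repressor that jasmonate itself induces, was found in 2 unigenes. The more strongly read, c153607_g3, had 59.2 and 56.2 CPM at heat 2 h, against 11.8 and 9.54 CPM in control leaves, with heated libraries 1.05-fold apart (log2 fold change 2.44, SE 0.22, adjusted p = 9.86e-05 by edgeR). The other, c140502_g1, had 13.8 and 17.5 CPM in the heated libraries and 2.33 and 1.07 CPM in the controls.

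The pre-mRNA splicing list had 10 rises among 20 tested (median log2 fold change 0.81). None fell by edgeR, adjusted or unadjusted, or by DESeq2. Without control replicate 1 the list had 5 rises. Its 3 members with the smallest p were parts of 1 cluster named Prp18, a factor of the second splicing step, and may share reads. Of these, c142898_g1 had 109 and 82.5 CPM at heat 2 h, against 1.5 and 1.75 CPM in control leaves, and c142898_g3 had 35 and 38.7 CPM at heat 2 h, against 0.833 and 0.537 CPM in control leaves. The remaining part, c142898_g2, had 115 and 51.4 CPM in the heated libraries and 1.0 and 1.07 CPM in the controls, so its heated libraries differed 2.23-fold where those of c142898_g3 differed 1.1-fold. All 3 were called up (log2 fold changes 5.86, 5.74 and 6.30 by edgeR).

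In photosynthesis and chlorophyll synthesis, 11 of 22 tested unigenes fell and 2 rose, with a median log2 fold change of -1.04, and with no minimum fold 17 fell. Their summed level was 22469.7 and 23079.6 CPM at heat 2 h, against 42157 and 42632 CPM in control leaves. Without heat 2 h replicate 1, 6 falls were called in place of 11. The lowest log2 fold change was that of a unigene of the antenna protein CAB1 (c166098_g1), which had 0.379 and 1.15 CPM at heat 2 h, against 10.8 and 14.9 CPM in control leaves (log2 fold change -4.09, SE 0.46, adjusted p = 3.73e-04 by edgeR). It held 11 heated counts in all. The other tested CAB1 unigenes fell less, with log2 fold changes of -1.33 (c150075_g2, the most read) and -1.02 (c109639_g1, not called, adjusted p = 0.0952 by edgeR). GAPA-2 (c141868_g1), a subunit of the glyceraldehyde phosphate dehydrogenase of the Calvin cycle, had 7723 and 8842 CPM at heat 2 h, against 15843 and 16312 CPM in control leaves. The 2 groups were far apart and the adjusted p was 0.00169 by edgeR, yet the log2 fold change of -0.96 (SE 0.14) kept it from being called.

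Phosphoribulokinase (PRK, c141729_g1), which makes the acceptor of carbon dioxide, had 1848 and 2371 CPM at heat 2 h, against 4669 and 4627 CPM in control leaves (log2 fold change -1.14, SE 0.17, adjusted p = 0.0015 by edgeR). Without heat 2 h replicate 1 its log2 fold change was -0.99, and the call was lost. PSBS (c137256_g1), the sensor that turns excess light into heat, had 822 and 830.5 CPM at heat 2 h, against 2038 and 2051 CPM in control leaves, with close agreement within both groups (log2 fold change -1.31, SE 0.15, adjusted p = 4.23e-04 by edgeR). The photosystem I subunits PSAK (c132391_g1) and PSAO (c133500_g3) were not called. PSAK had 4751 and 3628 CPM in the heated libraries and 5512 and 5510.0 CPM in the controls, and PSAO had 3963 and 3157 CPM in the heated libraries and 5364 and 5429 CPM in the controls. Both are leaf mesophyll markers, as are PRK, PSBS and GAPA-2, and these 5 had at least 822 CPM in every library. The 3 tested unigenes of a further marker, CAB1, drew fewer reads, between 0.379 and 52.0 CPM at heat 2 h and between 10.8 and 138 CPM in control leaves. As a sign of non-green tissue, TED6 (c149994_g1), a gene of developing xylem, had 4.54 and 9.74 CPM at heat 2 h, against 21.2 and 18.9 CPM in control leaves, and its part in the other results was not tested. A seed marker, beta-TIP, had too few counts for a test.

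CHLH, a subunit of the magnesium chelatase that opens chlorophyll synthesis, was split into 2 unigenes that may share reads. The larger, c156266_g2, had 1169 and 1511 CPM at heat 2 h, against 3785 and 3711 CPM in control leaves (log2 fold change -1.48, SE 0.17, adjusted p = 4.40e-04 by edgeR). The smaller, c156266_g1, had 40.0 and 139 CPM at heat 2 h, against 374 and 421 CPM in control leaves. There the heated libraries differed 3.44-fold, with replicate 1 the lower, and the SE was 0.46 on a log2 fold change of -2.15. A chloroplast RNA binding protein, CSP41B (c143650_g1), had 874 and 1221 CPM in the heated libraries and 2424 and 2374 CPM in the controls. Its call was lost without heat 2 h replicate 1 (log2 fold change -0.99, against -1.20 with all 4 libraries).

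**Figure D4:**
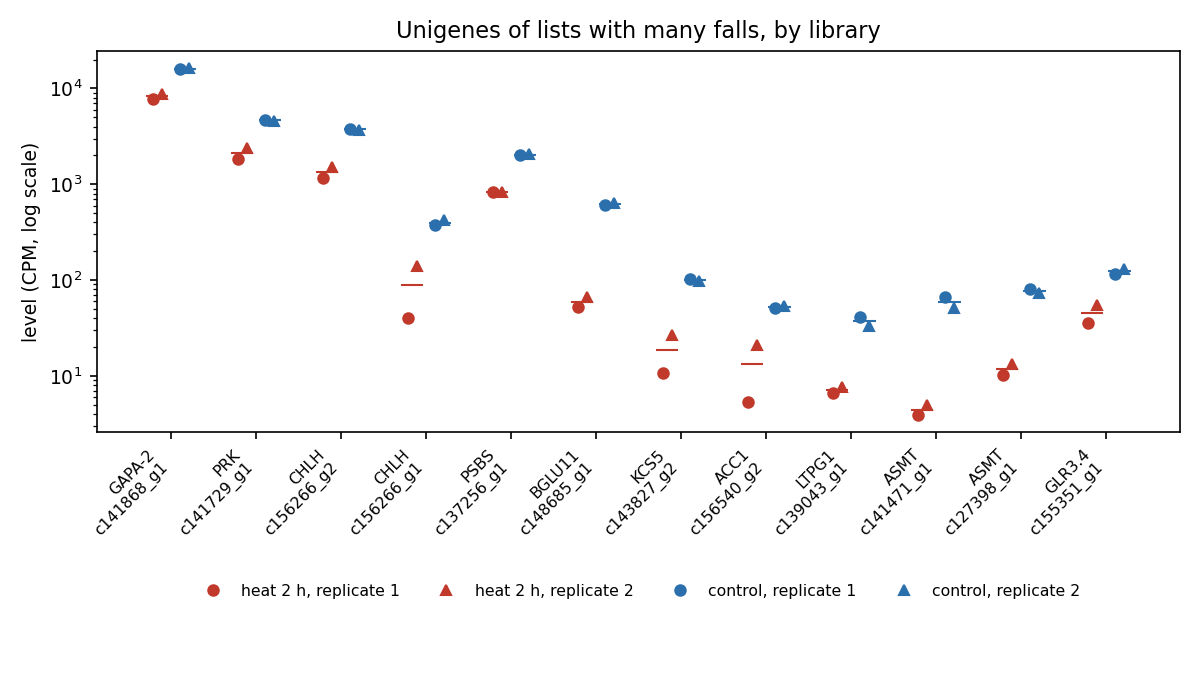
Levels of unigenes of photosynthesis, glycoside hydrolysis, wax and lipid, melatonin and calcium signalling in each library, in CPM on a log scale, with heat 2 h in red and control in blue, replicate 1 as circles, replicate 2 as triangles and the group mean as a line. All heated libraries lie below the controls, and the gap between the 2 heated libraries is widest for ACC1 and for the smaller CHLH unigene.

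In the synthesis of fatty acids and of the wax that coats the leaf, 16 of 25 tested unigenes fell and 3 rose (median log2 fold change -1.47), and no library left out moved these counts by over 1.5 times. KCS5 (c143827_g2), which lengthens fatty acids for wax, had 10.6 and 26.9 CPM at heat 2 h, against 103 and 98.3 CPM in control leaves, with replicate 1 the lower of the heated libraries (log2 fold change -2.43, SE 0.36, adjusted p = 0.00157 by edgeR). The lipid transfer protein LTPG1 (c139043_g1), which exports wax to the surface, had 6.69 and 7.59 CPM at heat 2 h, against 41.3 and 33.6 CPM in control leaves (log2 fold change -2.39, SE 0.23, adjusted p = 1.80e-04 by edgeR). Acetyl-CoA carboxylase 1 (ACC1, c156540_g2), which supplies malonyl units for lengthening, had 5.3 and 21.2 CPM at heat 2 h, against 51 and 53.6 CPM in control leaves. Its heated libraries were 3.74-fold apart. It was called down by edgeR (log2 fold change -1.99, SE 0.47, adjusted p = 0.0139) and not by DESeq2.

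Against this trend, 2 unigenes of CER1, which makes the alkanes of wax, were called up. The first, c156569_g1, had 384 and 368 CPM at heat 2 h, against 23 and 14.9 CPM in control leaves (log2 fold change 4.32, SE 0.25, adjusted p = 9.75e-06 by edgeR). The second, c120885_g1, held 3 and 2 counts in the controls and had 38.4 and 26.7 CPM in the heated libraries and 0.50 and 0.269 CPM in the controls (log2 fold change 6.38, SE 0.42, adjusted p = 2.04e-05 by edgeR). The summed level of the whole list was 837 and 942 CPM at heat 2 h, against 1126 and 1128 CPM in control leaves.

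Of 8 tested unigenes annotated to melatonin synthesis 7 were called down (median log2 fold change -1.65), and none rose by edgeR, adjusted or unadjusted, or by DESeq2. The counts were within 1.5 times with each library left out. All 3 unigenes named by the rule matched ASMT, the methyltransferase of the last step. ASMT c141471_g1 had 3.91 and 5.02 CPM at heat 2 h, against 66.8 and 51.2 CPM in control leaves (log2 fold change -3.72, SE 0.26, adjusted p = 2.62e-05 by edgeR). ASMT c127398_g1 had 10.2 and 13.2 CPM in the heated libraries and 81 and 74.1 CPM in the controls (log2 fold change -2.73, SE 0.22), and c141678_g1 had 9.72 and 13.6 CPM in the heated libraries and 52 and 52.7 CPM in the controls. Members of this family may share reads. Of the 8 unigenes 7 were lower in heat 2 h replicate 1 than in replicate 2.

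Calcium signalling had 8 falls among 16 tested (median log2 fold change -1.0), and none rose by edgeR, adjusted or unadjusted, or by DESeq2. There were 5 falls without control replicate 2, and 1 rise without heat 2 h replicate 2. The glutamate receptor channel GLR3.4 (c155351_g1), which lets calcium into cells, had 35.9 and 55.6 CPM at heat 2 h, against 117 and 131 CPM in control leaves (log2 fold change -1.44, SE 0.23, adjusted p = 0.00249 by edgeR). A second GLR3.4 unigene, c142718_g3, had 4.42 and 6.73 CPM in the heated libraries and 15.7 and 18.4 CPM in the controls. Annexin 1 (c145603_g1), a calcium-dependent membrane protein, had 51.3 and 65.6 CPM in the heated libraries and 117 and 124 CPM in the controls. Its log2 fold change of -1.04 lost the call when heat 2 h replicate 1 or control replicate 2 was left out.

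Brassinosteroid unigenes, of the growth hormone that the study applied to tall fescue seedlings in other experiments, had 7 falls among 18 tested (median log2 fold change -0.68). None rose by edgeR, adjusted or unadjusted, or by DESeq2, and 1 did each time a heat 2 h replicate was left out. Without control replicate 2 there were 3 falls. The receptor BRI1 (c154523_g1) had 19.6 and 19.1 CPM at heat 2 h, against 43.8 and 40.4 CPM in control leaves, with both groups tight (log2 fold change -1.12, SE 0.20, adjusted p = 0.00339 by edgeR). BRH1 (c149274_g2), a RING protein that responds to the hormone, had 10.2 and 8.17 CPM in the heated libraries and 22.7 and 27.1 CPM in the controls. A second BRH1 unigene, c141871_g1, had 15.1 and 13.3 CPM in the heated libraries and 29.2 and 35.3 CPM in the controls and lost its call without control replicate 2.

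Sugar and starch metabolism gave 14 falls and 3 rises among 32 tested (median log2 fold change -0.78), with 5 rises without heat 2 h replicate 2. The beta-glucosidase BGLU11 (c148685_g1), which splits sugars from glycosides, had 52.6 and 66.6 CPM at heat 2 h, against 605 and 631 CPM in control leaves (log2 fold change -3.37, SE 0.20, adjusted p = 1.06e-05 by edgeR). SUC2 (c145471_g1), which loads sucrose into the phloem, had 1.64 and 1.15 CPM at heat 2 h, against 9.16 and 10.2 CPM in control leaves (log2 fold change -2.77, SE 0.36, adjusted p = 7.72e-04 by edgeR). PPCK1 (c147875_g1), the kinase that activates phosphoenolpyruvate carboxylase, rose instead, with 45.2 and 25.9 CPM in the heated libraries and 7.0 and 7.39 CPM in the controls (log2 fold change 2.30, SE 0.30, adjusted p = 8.44e-04 by edgeR).

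Transporters of ions, amino acids and nitrogen had 19 falls and 8 rises among 50 tested (median log2 fold change -0.91). There were 11 falls without control replicate 2 and 5 rises without control replicate 1. A divalent ion symporter (c155457_g1) had 64.3 and 54.4 CPM at heat 2 h, against 163 and 166 CPM in control leaves (log2 fold change -1.47, SE 0.18, adjusted p = 6.18e-04 by edgeR). A carrier of the major facilitator superfamily (c154225_g1) had 13.9 and 12.3 CPM in the heated libraries and 0.333 and 1.61 CPM in the controls and a log2 fold change of 3.65. Outside the lists, the vacuolar proton pump AVP1 (c153971_g1), which energises transport into the vacuole, had 365 and 544 CPM at heat 2 h, against 1237 and 1257 CPM in control leaves, with replicate 1 the lower heated library (log2 fold change -1.46, SE 0.21, adjusted p = 0.00127 by edgeR).

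Auxin had 23 falls and 7 rises among 66 tested (median log2 fold change -0.67), with 14 falls without control replicate 1. The 3 members with the smallest p all rose. An auxin efflux carrier (c150485_g1) had 58.6 and 41.8 CPM at heat 2 h, against 1.5 and 3.09 CPM in control leaves (log2 fold change 4.41, SE 0.34, adjusted p = 4.75e-05 by edgeR). A dormancy/auxin associated protein (c144439_g1) had 247 and 176 CPM in the heated libraries and 65.8 and 54.7 CPM in the controls. The auxin binding protein ABP1 (c139704_g1) had 66.2 and 71.1 CPM at heat 2 h and 18.8 and 20.1 CPM in control leaves (log2 fold change 1.81, SE 0.19). As examples of the falls, chosen after their values were seen, the response factor ARF6 (c146842_g1) had 1.01 and 1.29 CPM at heat 2 h, against 6.5 and 7.39 CPM in control leaves, and the repressor IAA14 (c148134_g1) had 51.8 and 53.7 CPM in the heated libraries and 109 and 106 CPM in the controls (log2 fold changes -2.59 and -1.02).

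Receptor-like kinases, which sense signals at the cell surface, split into 4 rises and 6 falls among 22 tested (median log2 fold change -0.52), and DESeq2 called 3 down. The edgeR shares were 18.2 and 27.3%, against 25.5 and 20% of all unigenes with a name. HERK2 (c144500_g1), a kinase of cell elongation, had 606 and 749 CPM at heat 2 h, against 25.5 and 27.9 CPM in control leaves, with replicate 2 the higher heated library (log2 fold change 4.66, SE 0.21, adjusted p = 3.91e-06 by edgeR). A leucine-rich repeat kinase (c155431_g1) had 26.3 and 31.8 CPM in the heated libraries and 69.8 and 73.9 CPM in the controls. In light sensing and the clock, 1 of 13 tested rose and 1 fell. Each share was 7.69%, below the 25.5 and 20% of all unigenes with a name. The photoreceptor cryptochrome 2 (c155297_g1) had 124 and 123 CPM at heat 2 h, against 38.2 and 37.9 CPM in control leaves (log2 fold change 1.70, SE 0.18, adjusted p = 2.67e-04 by edgeR), while phytochrome A (c145535_g1) had 1.14 and 2.15 CPM in the heated libraries and 8.83 and 9.27 CPM in the controls (log2 fold change -2.47, SE 0.38). Without heat 2 h replicate 1 there were 3 falls in this list, without heat 2 h replicate 2 there were 3 rises and 2 falls, without control replicate 1 there were 2 falls and without control replicate 2 there were 2 rises.

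Small RNA and silencing unigenes had 4 rises and 3 falls among 11 tested (median log2 fold change -0.73). On so few members, the shares were 36.4% up and 27.3% down, against 25.5 and 20% of unigenes with a name. The Argonaute proteins, which carry small RNAs to their targets, differed among themselves. AGO1 (c146619_g1) had 3.66 and 6.88 CPM at heat 2 h, against 23.7 and 25 CPM in control leaves (log2 fold change -2.22, SE 0.31, adjusted p = 0.00109 by edgeR). AGO2 was found in 2 unigenes that rose on few counts, c150503_g3 with 2.78 and 5.16 CPM in the heated libraries and 0.50 and 0.269 CPM in the controls and c134150_g1 with 9.09 and 5.02 CPM in the heated libraries and 1.17 and 0.269 CPM in the controls (log2 fold changes 3.34 and 3.35). The heated replicates ranked in opposite order in these 2 unigenes.

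Glutathione S-transferases, which detoxify, had 5 falls and 1 rise among 9 tested (median log2 fold change -1.11), with 3 falls by DESeq2, under library totals and without control replicate 1. The rise was not called without heat 2 h replicate 1, and 2 rises were called without heat 2 h replicate 2 or control replicate 1. ERD9 (c141181_g1) had 3.53 and 4.87 CPM at heat 2 h, against 15.2 and 16.7 CPM in control leaves. GSTU18 (c135565_g1) had 129.7 and 86.7 CPM in the heated libraries and 243 and 226 CPM in the controls, and lost its call without heat 2 h replicate 2.

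Unigenes annotated with transposon proteins had 36 rises and 4 falls among 69 tested (median log2 fold change 1.34). DESeq2 called 23 up and 1 down, and the falls were 1 without control replicate 1 and 2 without control replicate 2. Their summed level was 1736 and 1172 CPM at heat 2 h, against 212 and 221 CPM in control leaves. A transposase of the hAT type (c147761_g1) held 3 control counts in all and had 331 and 193 CPM at heat 2 h, against 0.167 and 0.269 CPM in control leaves, a ratio of 1194 (95% counting interval 408 to 5790.4). A PIF transposase (c130745_g2) had 161 and 85.8 CPM at heat 2 h, against 0.50 and 0.269 CPM in control leaves (log2 fold change 8.31, SE 0.49, adjusted p = 1.15e-05 by edgeR). A Gag-Pol retrotransposon (c156834_g3) had 47.7 and 35.5 CPM in the heated libraries and 0.667 and 0.403 CPM in the controls. Replicate 1 was the higher heated library in all 3, and in 46 of the 69.

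F-box proteins, which choose targets for ubiquitin ligases, had 39 rises and 6 falls among 113 tested (median log2 fold change 0.64). Their shares were 34.5% up and 5.31% down, against 25.5 and 20% of unigenes with a name. A unigene of the F-box associated ubiquitination effector family (c128658_g1) had 60.3 and 56.6 CPM at heat 2 h, against 0 and 0.134 CPM in control leaves, a ratio of 788 (95% counting interval 141 to 31153) on 1 control count. RING ligases were balanced, with 25 rises and 19 falls among 131 tested (median log2 fold change -0.03), and 9 falls without control replicate 2. With all 4 libraries the shares of RING ligases were 19.1% up and 14.5% down, against 25.5 and 20% of unigenes with a name. One RING protein (c134598_g1) had 120.1 and 67.1 CPM at heat 2 h, against 1.83 and 2.42 CPM in control leaves (log2 fold change 5.43, SE 0.37, adjusted p = 2.39e-05 by edgeR). Proteasome and ubiquitin unigenes showed 5 rises and 3 falls among 33 tested (15.2 and 9.09%), and DESeq2 called 1 up and 3 down. The edgeR shares were near the 14.5 and 8.43% of all unigenes tested and below the 25.5 and 20% of unigenes with a name. The rises were 2 without heat 2 h replicate 1, 3 without control replicate 1 and 1 without control replicate 2.

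**Figure D5:**
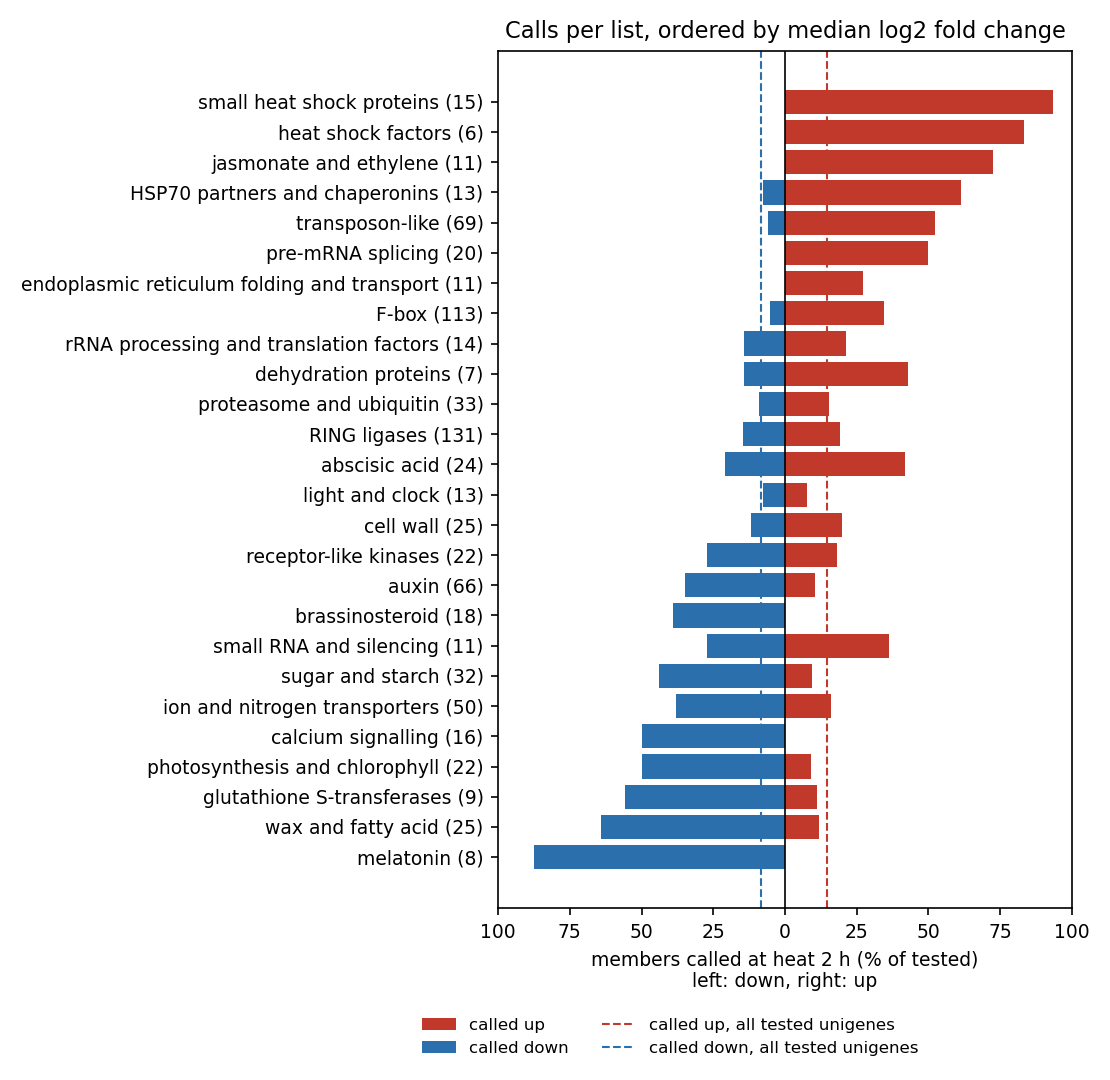
Members called up (red, to the right) and down (blue, to the left) at heat 2 h against control, in percent of the members tested, whose number follows each list's name. Dashed lines mark the 14.5% called up and 8.43% called down over all unigenes tested. Of the unigenes with a name, from which the lists were drawn, 25.5% were called up and 20% down. Small heat shock proteins (14 of 15 up) stand at the top and melatonin synthesis (7 of 8 down) at the bottom.

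The rule on named unigenes also took the 8 whose heated libraries differed most, with at least 10 CPM at heat 2 h. These show where the mean of heat 2 h stands for neither library. DNAse I-like c146321_g3 had 2.65 and 21.3 CPM at heat 2 h, against 1.33 and 0.94 CPM in control leaves, so that replicate 2 stood 6.93-fold above replicate 1. It was called up by edgeR (log2 fold change 3.39, SE 0.91, adjusted p = 0.0231), and neither by DESeq2 nor without replicate 2. DNAse I-like c144296_g1 had 19.8 and 3.44 CPM at heat 2 h, against 4.83 and 4.43 CPM in control leaves, where replicate 1 stood 5.16-fold above replicate 2. It was not called (log2 fold change 1.34, SE 0.65, adjusted p = 0.151 by edgeR), and without replicate 1 its log2 fold change was -0.44.

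The remaining 6 were all lower in heat 2 h replicate 1. They include ACC1 and the smaller CHLH unigene. The transporter ABCC1 (c156490_g2), of the vacuolar membrane, had 8.08 and 31.4 CPM at heat 2 h, against 44.7 and 51.8 CPM in control leaves, so that replicate 1 lay below the controls while replicate 2 was closer to them (log2 fold change -1.30, SE 0.47, adjusted p = 0.0694 by edgeR). The LIM domain protein WLIM1 (c148959_g1), which binds actin, had 7.7 and 21.2 CPM in the heated libraries and 29.5 and 33.6 CPM in the controls and was not called either. A unigene of unknown function (c153175_g1) had 5.43 and 15.8 CPM in the heated libraries and 9.33 and 6.72 CPM in the controls. Its heated libraries lay on either side of the controls, and its log2 fold change was -0.58 without replicate 2. Over all unigenes with at least 10 CPM, the largest gap was that of c140615_g1, which has no name in the rows used here and was chosen after its values were seen. It had 2.9 and 29.4 CPM at heat 2 h, against 94.8 and 107 CPM in control leaves, a 8.78-fold difference between the heated libraries. It was called down by edgeR (log2 fold change -2.66, SE 0.70, adjusted p = 0.0208) and not by DESeq2.

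Among unigenes without a name in the rows used, the 2 called up with the largest gain in CPM were c144030_g2, with 7783 and 5965 CPM at heat 2 h, against 261 and 243 CPM in control leaves, and c154141_g3, with 5355 and 8404 CPM in the heated libraries and 231 and 219 CPM in the controls. The first was higher in replicate 1 and the second in replicate 2. The 2 called down with the largest loss were c140123_g2, with 4449 and 8521 CPM at heat 2 h, against 13148 and 13215 CPM in control leaves, and c144167_g1, with 1622 and 3150.2 CPM in the heated libraries and 5071 and 5271 CPM in the controls. In both of these replicate 1 was the lower by nearly the same factor (1.92 and 1.94). Both calls were lost without heat 2 h replicate 1, when the log2 fold changes were -0.65 and -0.73.

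The study designed primer pairs for quantitative PCR on 20 of its unigenes, which give the only sequence for them used here. Of the 20, 19 could be tested, and 18 were called up. As the primers were made for genes that respond to heat, this count describes the choice. The pairs of 4 unigenes are shown, written 5′ to 3′ in lower case with no part marked, since they tie the counts above to transcripts that can be measured again.
HSP17.6II (c148595_g1) forward: accgaagcaaatacccagatc
HSP17.6II (c148595_g1) reverse: caccctgccctccattc
HSFA3 (c151159_g1) forward: aggtccaagggaaagaatgtg
HSFA3 (c151159_g1) reverse: caagtttgctcaccatctgc
FTSH6 (c144626_g1) forward: aaacaagaggctggataccg
FTSH6 (c144626_g1) reverse: ccttaacggagatgcggtc
NAC (c150305_g1) forward: gaagggatcactcaggctg
NAC (c150305_g1) reverse: ctccattttcaggtccgtttg

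The NAC unigene (c150305_g1), of a family of stress transcription factors and best matched by ATAF1, was the one that was tested and not called. It had 56.8 and 22.6 CPM at heat 2 h, against 18.8 and 20.7 CPM in control leaves. Only replicate 1 stood clear of the controls, and the heated libraries were 2.48-fold apart (log2 fold change 1.01, SE 0.37, adjusted p = 0.0719 by edgeR). Without replicate 2 it was called up, with a log2 fold change of 1.49. The gibberellin oxidase GA2OX8 (c145230_g1), which inactivates a growth hormone, had 38.8 and 21.6 CPM at heat 2 h, against 0.833 and 0.94 CPM in control leaves (log2 fold change 5.06, SE 0.42, adjusted p = 7.31e-05 by edgeR). Cytochrome c-2 (c134256_g1) had 39.5 and 33.5 CPM in the heated libraries and 0.50 and 0.134 CPM in the controls. A calmodulin-like unigene, CML38 (c38780_g1), had too few counts for a test, with 1 and 0 counts at heat 2 h and 1 and 0 counts in control leaves.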

How the data were processed

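Leaf RNA was sequenced in 6 libraries, 2 per condition, and the 4 of heat 2 h and control were compared here. For 179680 unigenes of a Trinity assembly, the authors deposited expected counts, which are estimated and need not be whole, without scaling the libraries to each other. The study's methods name RSEM, while the labels list Bowtie2 2.2.3, TopHat2 2.0.12, HTSeq 0.6.1 and DESeq 1.18.0. No genome was used, so reads of family members or split unigenes may be divided between them.

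Counts were rounded, and filterByExpr (minimum count 10) kept 25966 unigenes with 97.5 to 98.4% of the counts. The 4 libraries were scaled by TMM and fitted with the quasi-likelihood test of edgeR 4.0.16 in R 4.3.3. The fit was also tried on simulated counts. These had the same spread in both groups, so the trial does not cover the unequal spread of heat 2 h and control. Benjamini-Hochberg adjustment ran over all unigenes tested. Calls were made at 2-fold or more with an adjusted p up to 0.05. The SE was had by dividing the absolute log2 fold change by the root of F. The log2 differences between libraries use a pseudocount of 0.5 CPM. Ratios on 1 to 3 control counts carry exact 95% intervals, which cover counting error only.

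The comparison, lists, naming rule and fit were chosen with earlier results of these data known. Names came from the study's tables, the largest of which was used only in part (1472 rows). Among unigenes named in the rows used, the rule took the 10 largest and 10 lowest log2 fold changes at 10 CPM or more, the 3 smallest p-values of each list, the 8 widest gaps between heated libraries, the 8 highest levels per group, the 5 largest gains and losses in CPM, and those with primers. Unigenes without a name were limited to 2 per direction. Alternatives tried were each library left out, DESeq2 1.42.0, all 6 libraries in the fit, a block on the replicate number, RLE or plain library totals as scaling, a filter of 1 count in all or of 10 in each library, and calls by unadjusted p or with no fold limit.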

Additional observations from a re-analysis of the deposited data

How the results depend on the processing

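With at least 10 counts required in each library, 2072 unigenes were called up and 1393 down, since 18705 were tested. With each library left out in turn, the rises ran from 2656 to 4761 and the falls from 1677 to 3729. RLE size factors gave 3685 rises and 2276 falls, library totals 4292 and 1721, no filter beyond 1 count 3927 and 2788, DESeq2 2761 and 1656, all 6 libraries in the fit 4236 and 2514, an unadjusted p 4619 and 2753, and no minimum fold 4244 and 3198. Over all unigenes the median log2 fold change was 0.16 under library totals, against 0.04 with TMM. DESeq2 called 2758 of the 3768 rises and 1616 of the 2190 falls of edgeR. The deviations of libraries numbered 1 were uncorrelated (r = -0.05 over 9208 unigenes), so replicate numbers gave no sign of pairing, though 1 correlation cannot exclude it. A fit with the number as a block called 3766 up and 2358 down. The SD between controls was 0.430 over unigenes of at least 1 CPM and 0.135 over those of at least 100 CPM, while that of heat 2 h was 0.582 and 0.483. Of 124 named unigenes, 112 were called, and 100 of them kept the call under every alternative that gave a value. Signs turned for DNAse I-like c144296_g1, with log2 fold changes of -0.44 without heat 2 h replicate 1 and 2.07 without replicate 2, and for c153175_g1, with 0.97 without heat 2 h replicate 1 and -0.58 without replicate 2. Precision is limited by 2 libraries a side and, under 10 CPM, by counting. With a library left out, the lone library is assumed to vary like the remaining pair.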

Other observations

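Cell wall unigenes had 5 rises and 3 falls among 25 tested (median log2 fold change -0.36), with 1 fall without control replicate 1 and 8 falls without heat 2 h replicate 2. With all 4 libraries the shares were 20% up and 12% down, against 25.5 and 20% of unigenes with a name. The 3 smallest p-values of the list belonged to rises on few counts. The plasmodesmata callose-binding protein PDCB3 (c145220_g1), which binds callose at the channels between cells, had 14.3 and 10.5 CPM at heat 2 h, against 0.50 and 0 CPM in control leaves, a ratio of 56 (95% counting interval 18.9 to 274) on 3 control counts. The galacturonosyltransferase GAUT9 (c154795_g2) had 4.54 and 2.44 CPM in the heated libraries and 0.167 and 0 CPM in the controls on 1 control count.

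Unigenes of rRNA processing and translation factors had 3 rises and 2 falls among 14 tested (median log2 fold change 0.39), and 4 falls without heat 2 h replicate 2. With all 4 libraries the shares were 21.4% up and 14.3% down, against 25.5 and 20% of unigenes with a name. FUG1 (c151468_g1), a translation initiation factor of the chloroplast, had 221 and 280.0 CPM at heat 2 h, against 637 and 667 CPM in control leaves (log2 fold change -1.38, SE 0.18, adjusted p = 7.92e-04 by edgeR). An elongation factor of the EF1A type (c138681_g1) had 18.2 and 12.9 CPM in the heated libraries and 3.67 and 3.9 CPM in the controls (log2 fold change 2.03, SE 0.30).

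Dehydration proteins, which protect cells as they dry, had 3 rises and 1 fall among 7 tested (median log2 fold change 0.37). On so few members, the shares were 42.9% up and 14.3% down, against 25.5 and 20% of unigenes with a name. No rise was called by edgeR without control replicate 2, and 1 was called by DESeq2 with all 4 libraries. The dehydrin ERD10 (c63363_g1) had 4.92 and 4.16 CPM at heat 2 h, against 1.33 and 1.07 CPM in control leaves. An early-responsive protein (c150627_g1) had 0.884 and 4.3 CPM in the heated libraries and 15.5 and 14.5 CPM in the controls, so that its heated libraries differed 3.47-fold.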
